A study of Mus musculus with 4 samples.

Results

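The genes examined here are 9 markers by which the resident stem cells of skeletal muscle, the satellite cells, are recognised or held at rest: Cd34, Vcam1, Sdc3, Sdc4, Cdh15, Calcr, Spry1, Megf10 and Ncam1. They were taken by symbol from the 24445 genes of the expression table, and all 9 were found. RNA was sequenced from primary myoblasts of C57BL/6 mice, with 2 libraries from WT animals and 2 from Tet2 KO animals, a knockout made through homologous recombination that removes exon 3 of Tet2. The animals of the study were male and young adult unless stated otherwise. In both groups the starting cells were sorted from hindlimb muscle by the absence of CD45, CD11b, CD31 and Sca1 and by the presence of CD34 and integrin alpha 7, and were then grown on collagen for at least 3 days until they had become MyoD-positive myoblasts. The labels do not say whether the libraries of a group came from separate animals.

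Satellite cells lie between the muscle fibre and its basal lamina, where adhesion proteins hold them in place and receptors keep them out of the cell cycle. Upon injury, or once placed in culture, they leave this resting state, proliferate as myoblasts, and later fuse into fibres. Several surface proteins used to sort resting satellite cells are kept by proliferating myoblasts, while others are lost with activation, and Ncam1 in addition accompanies differentiation.

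Expression was measured as FPKM, fragments scaled to transcript length and to the number of mapped fragments, with 1 value per gene and group. Where a pair of values is given with no group named, that of Tet2 KO comes first. The values of single libraries were not analysed here. For that reason no standard deviation stands beside any value and no test was made. A gene was kept when the mean FPKM of the 2 groups was at least 1, which held for 11692 genes and for 8 of the 9 markers. The difference between the groups was taken on the log2(FPKM + 1) scale as Tet2 KO minus WT, where the added 1 makes the change of genes with low values look smaller than their ratio. A gene was called when this difference reached 1.5-fold. Over all kept genes 435 (3.72%) were called higher and 338 (2.89%) lower in Tet2 KO, and the median difference was -0.0044. These shares describe the table and hold no replicate error. Tet2 itself had 5.79 FPKM in Tet2 KO against 6.64 in WT, a value over the whole gene that does not resolve the deleted exon.

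Of the 8 markers kept, 1 was called higher (Cd34), 1 was called lower (Ncam1) and 6 lay within 1.5-fold. With 8 genes, a single call in each direction is too few to be read against the background of 3.72% higher and 2.89% lower. The markers did not move to 1 side: 4 had the higher value in Tet2 KO and 4 in WT, and their median difference was -0.02. The adhesion and signalling genes Vcam1, Sdc3 and Sdc4 were on the higher side with Cd34. Cdh15, Spry1 and Megf10 were on the lower side with Ncam1. The summed level of the 9 markers was 625 FPKM in Tet2 KO against 609 in WT. The plot of marker levels shows both values of each gene.

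**Figure D1:**
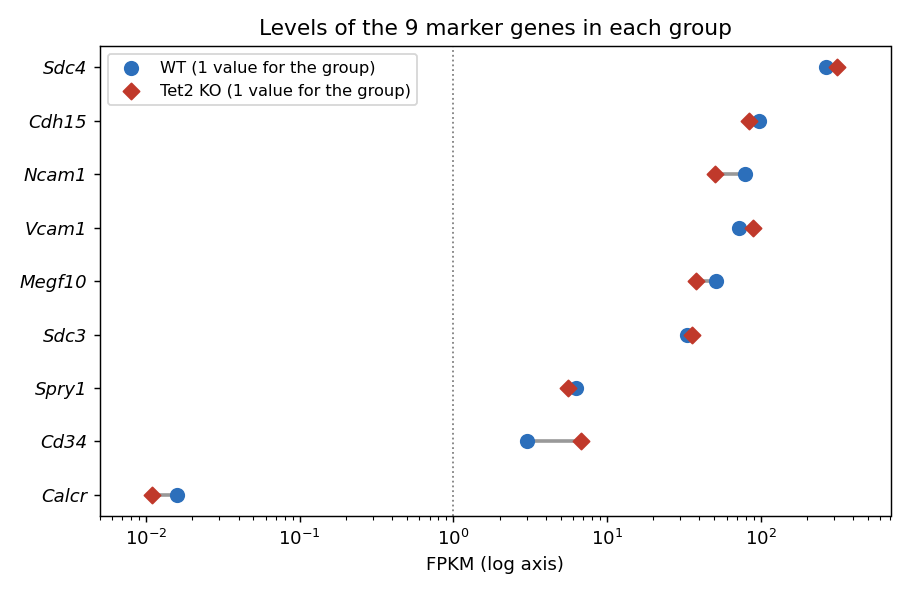
FPKM of the 9 markers on a log axis, with WT as blue circles, Tet2 KO as red diamonds and a grey line joining the 2 values of a gene; the dotted line marks 1 FPKM. Cd34 shows the widest gap among the genes above 1 FPKM (3.03 against 6.74), Ncam1 the next (79.2 against 50.2), and Calcr lies below 0.02 in both groups.

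The order of the markers by level was shared by the groups only in part. Sdc4 was the most abundant in both, with 315 FPKM in Tet2 KO against 267 in WT, and it made up 50.5% and 43.7% of the summed marker level. In WT it was followed by Cdh15 at 97.4 FPKM, Ncam1 at 79.2 FPKM and Vcam1 at 72.6 FPKM. In Tet2 KO the same places were taken by Vcam1 at 88.6 FPKM, Cdh15 at 84.3 FPKM and Ncam1 at 50.2 FPKM. Vcam1 thus stood below Cdh15 and Ncam1 in WT and above both in Tet2 KO. Megf10 and Sdc3 held the fifth and the sixth place in both groups. Cd34 and Spry1 exchanged the seventh and the eighth place, Spry1 being the higher in WT and Cd34 the higher in Tet2 KO. Calcr was the lowest in both. Without a value per library it could not be said which neighbours in this order differ beyond the spread between libraries. The closest pair was Vcam1 and Cdh15 in Tet2 KO, with a ratio of 1.05.

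CD34 is a sialomucin of the cell surface that marks resting satellite cells and also blood progenitors, endothelial cells and fibroblast-like progenitors. Its gene lies on chromosome 1 between 196765015 and 196787486 (mm9, plus strand) and has 8 exons in the longest annotated transcript. Cd34 had 6.74 FPKM in Tet2 KO against 3.03 in WT, a ratio of 2.22. On the log2(FPKM + 1) scale the difference was 0.94, and 2.29% of all kept genes were at least as far on the higher side. The share of genes past 1.5-fold differed with level in this table. The 3371 genes within 2-fold of the mean level of Cd34 were therefore examined as well. Past 1.5-fold in either direction lay 9.05% of them, against 3.23% of the genes at the level of Vcam1 and 5.44% at that of Sdc4. Among the genes near the level of Cd34, 3.50% were at least as far on the higher side. An antisense gene, Gm16897, shares 148 of the 2621 exon bases (5.65%) of Cd34, and the library kit keeps no strand, so reads from the shared bases cannot be assigned to either gene. Gm16897 had 0.148 FPKM in Tet2 KO against 0.116 in WT. Both groups had been sorted as CD34-positive, and the level measured is that of the cultured cells. It was far below that of Itga7, the gene of the other positive sorting marker, which had 190 FPKM in Tet2 KO against 199 in WT and therefore exceeded Cd34 28.2-fold and 65.6-fold. CD34 is carried by several cell types, and the 10 leukocyte markers examined further on were higher in Tet2 KO too, with summed levels of 468 against 119 FPKM. Their part in the value of Cd34 was not tested. In bulk RNA, more cells that carry a transcript and more of it per cell cannot be told apart.

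CD34 belongs to a family with podocalyxin (Podxl) and endoglycan (Podxl2). In the family, Podxl had 3.99 FPKM in Tet2 KO against 2.65 in WT, and Podxl2 had 1.42 and 2.03 FPKM. Neither passed 1.5-fold on the log2(FPKM + 1) scale, at differences of 0.45 and -0.32. Cd34 was the highest of the family in both groups.

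Because Tet2 acts on methylated cytosine in CpG dinucleotides, the CpGs before the annotated start were counted in the RefSeq promoter table (build GRCm38.p6) for the 6 markers matched in it, Cd34, Sdc4, Spry1, Sdc3, Calcr and Cdh15. No methylation value was used here, and the counts describe sequence only. In the 250 bases before the start, Cd34 had 6 CpGs, Cdh15 had 5, Sdc4 had 19, Spry1 had 23 and Sdc3 had 32. Calcr has 2 annotated starts, with 24 and 2 CpGs. The median over 32851 promoters was 6. Cd34 and Cdh15 are thus CpG-poor beside the syndecan genes: 49.6% and 44.4% of promoters had fewer CpGs, against 80.3% for Sdc4 and 95.4% for Sdc3. Sequences are given for the gene with the largest difference, Cd34 (chr1:194938571-194938820, plus strand), for Cdh15 as a marker of muscle cells with few CpGs (chr8:122848124-122848373, plus strand), and for the most abundant marker, Sdc4 (chr2:164443189-164443438, minus strand), each 5′ to 3′ along its gene with CpGs in capitals.

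Cd34: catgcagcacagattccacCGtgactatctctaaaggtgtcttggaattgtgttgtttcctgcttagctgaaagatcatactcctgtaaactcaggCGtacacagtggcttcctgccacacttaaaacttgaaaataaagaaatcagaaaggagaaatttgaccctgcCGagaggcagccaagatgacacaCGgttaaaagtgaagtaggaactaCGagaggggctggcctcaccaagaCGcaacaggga

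Cdh15: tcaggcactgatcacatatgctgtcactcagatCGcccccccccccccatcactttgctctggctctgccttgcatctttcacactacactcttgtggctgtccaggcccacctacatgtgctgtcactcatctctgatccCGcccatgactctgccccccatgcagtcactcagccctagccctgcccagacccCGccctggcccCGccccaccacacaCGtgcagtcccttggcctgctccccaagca

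Sdc4: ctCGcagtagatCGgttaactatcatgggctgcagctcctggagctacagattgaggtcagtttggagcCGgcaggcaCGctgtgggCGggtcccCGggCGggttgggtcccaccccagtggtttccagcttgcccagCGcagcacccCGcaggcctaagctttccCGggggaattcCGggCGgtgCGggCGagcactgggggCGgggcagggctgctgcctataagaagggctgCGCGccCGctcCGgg

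The same windows were searched on both strands for the E boxes CAGCTG and CAGGTG, bound by MyoD and related factors, for TGGGAA, the core of the site of the Notch effector RBPJ, for the NF-kB site GGGATTTCC, and for TATAAA. Among the 7 windows of the 6 markers, 1 held CAGGTG, that of the second start of Calcr, and none held any of the other 4. Over all 32851 promoters CAGCTG was found in 4271, and the shares were 17.2% for CAGGTG, 21.6% for TGGGAA, 0.283% for GGGATTTCC and 12.4% for TATAAA. A window without these letters says nothing of binding elsewhere in the gene.

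VCAM1 is an adhesion molecule of the immunoglobulin superfamily that marks resting and activated satellite cells and is recognised by integrins that contain the alpha 4 chain. Vcam1, on chromosome 3 between 115812938 and 115832606 (mm9, minus strand), had 88.6 FPKM in Tet2 KO against 72.6 in WT, a ratio of 1.22. Its difference was 0.28 on the log2(FPKM + 1) scale, within 1.5-fold. Of the 1824 genes within 2-fold of its mean level, 3.95% were at least as far on the higher side.

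NCAM1, a second adhesion molecule of this superfamily, is carried by myoblasts and by newly formed and denervated fibres, and its level is known to increase as myoblasts differentiate. Ncam1 lies on chromosome 9 between 49310257 and 49607027 (mm9, minus strand) and spans 18 exons in the longest transcript. It had 50.2 FPKM in Tet2 KO against 79.2 in WT, so the level in WT was 1.58 times that in Tet2 KO. The difference of -0.65 passed 1.5-fold, and 2.50% of all kept genes were at least as far on the lower side. Among the 2288 genes within 2-fold of its mean level the share was 2.01%. The gene model Gm11149, on the opposite strand, shares 254 of its 10121 exon bases (2.51%) and had 0.450 FPKM in Tet2 KO against 0.900 in WT.

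Both genes had higher levels than the other adhesion molecules of the superfamily that were listed. Ncam2 was at 0.0038 FPKM in each group. Icam1, an intercellular adhesion molecule induced in inflammation, had 2.78 FPKM in Tet2 KO against 1.40 in WT and was called higher at 0.66. A microRNA gene on the opposite strand shares 19.3% of its exon bases. Alcam had 34.0 and 21.1 FPKM and was called higher as well, also at 0.66. Of the integrin chains that bind VCAM1, Itga4 had 2.12 FPKM in Tet2 KO against 1.46 in WT, and its partner Itgb1 had 215 and 227 FPKM. The leukocyte chain Itgb7 had 6.85 and 3.20 FPKM and was called higher at 0.90. In all, 13 genes of this kind were listed and 9 kept, with a median of 0.31. Of those kept, 3 were called higher and 0 lower, beside 3.72% and 2.89% of all kept genes. St8sia2 and St8sia4, whose products add polysialic acid to NCAM, had 4.95 and 4.14 FPKM in Tet2 KO and 5.60 and 3.14 FPKM in WT, and neither passed 1.5-fold.

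M-cadherin, the product of Cdh15, joins satellite cells to the fibre and myoblasts to each other. Cdh15 lies on chromosome 8 between 125371866 and 125391297 (mm9, plus strand). It had 84.3 FPKM in Tet2 KO against 97.4 in WT, a ratio of 0.866, and its difference of -0.21 was within 1.5-fold. It was the most abundant cadherin of those examined in both groups, 1.87 times Cdh2 (N-cadherin) in Tet2 KO and 1.93 times in WT. Cdh2 had 45.0 FPKM in Tet2 KO against 50.3 in WT, a difference of -0.16. Of 7 cadherins and catenins kept, 1 was called, Cdh11, a cadherin of mesenchymal cells such as fibroblasts, with 15.2 FPKM in Tet2 KO against 8.77 in WT (difference of 0.73). The median of the list was -0.10, and its most abundant gene, Ctnnb1 (beta-catenin), had 323 and 329 FPKM.

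**Figure D2:**
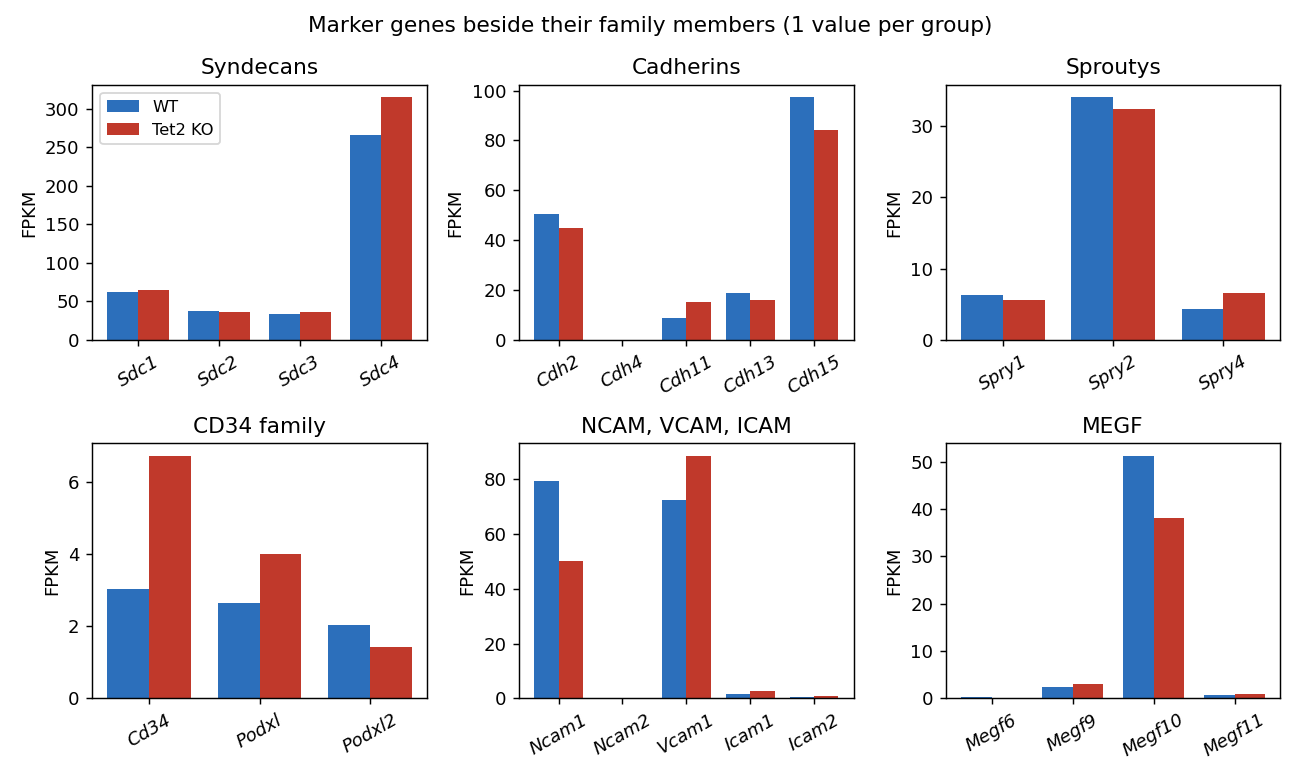
FPKM of the markers beside members of their families, WT in blue and Tet2 KO in red, 1 value per group and a linear axis of its own for each family. Sdc4, Cdh15 and Megf10 are the highest of the family members plotted in both groups, while Spry1 lies below Spry2, which had 32.4 FPKM in Tet2 KO against 34.1 in WT.

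Syndecans 3 and 4 are heparan sulphate proteoglycans of the cell surface that present growth factors such as FGF and HGF to their receptors on satellite cells. Sdc4, on chromosome 2 between 164249747 and 164269387 (mm9, minus strand), had a ratio of 1.18 and a difference of 0.24. Sdc3, on chromosome 4 between 130348452 and 130382234 (mm9, plus strand), had 35.7 FPKM in Tet2 KO against 33.1 in WT, a ratio of 1.08 and a difference of 0.11. Both were within 1.5-fold. At the level of Sdc4, 7.32% of 478 genes were at least as far on the higher side, and for Sdc3 17.5% of 3705 genes. The other family members Sdc1 and Sdc2 had 64.4 and 35.7 FPKM in Tet2 KO and 62.0 and 37.9 FPKM in WT. Over the 4 syndecans the summed level was 451 FPKM in Tet2 KO against 400 in WT, of which Sdc4 gave 69.9% and 66.7%. The enzymes that build and trim heparan sulphate, among them Ext1, Ndst1, Hs2st1 and Sulf1, were listed with Sdc1 and Sdc2. None of these 11 genes was called, and their differences ran from -0.23 to 0.13 around a median of -0.0013.

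Sprouty 1 dampens signals of receptor tyrosine kinases to ERK and is needed for satellite cells to return to rest. Spry1 lies on chromosome 3 between 37538869 and 37543520 (mm9, plus strand). It had 5.55 FPKM in Tet2 KO against 6.32 in WT, a difference of -0.16 within 1.5-fold, and 21.0% of 3627 genes of like level were at least as far on the lower side. Spry2 exceeded Spry1 5.83-fold in Tet2 KO and 5.40-fold in WT. Spry4, another gene of the family that is induced by ERK, had 6.55 FPKM in Tet2 KO against 4.27 in WT and was above Spry1 in Tet2 KO and below it in WT. Its difference of 0.52 was within 1.5-fold, although its ratio of FPKM was 1.53.

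The genes around Spry1 in the FGF and ERK pathway were examined as a list of 10, all kept. Fgf2, a growth factor for satellite cells, alone was called: it had 3.44 FPKM in Tet2 KO against 0.940 in WT (difference of 1.19). Other genes share 16.5% of its exon bases, the antisense gene Nudt6 among them. The receptors Fgfr1 and Fgfr4 had 25.6 and 22.7 FPKM in Tet2 KO and 26.2 and 24.7 FPKM in WT. Dusp6, a phosphatase of ERK that is itself induced by ERK, was the most abundant, with 54.4 and 44.3 FPKM. The median of the list was 0.09.

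MEGF10 is a receptor with EGF-like repeats that acts in myoblast proliferation and motility together with Notch. Megf10, on chromosome 18 between 57292744 and 57457121 (mm9, plus strand), had 38.1 FPKM in Tet2 KO against 51.3 in WT, so the level in WT was 1.35 times that in Tet2 KO. Its difference of -0.42 was the next after that of Ncam1 among the markers on the lower side and within 1.5-fold. Of 3112 genes of like level, 3.15% were at least as far on the lower side. Megf9 of the same family had 2.93 FPKM in Tet2 KO against 2.44 in WT. The close relative Megf11 was below 1 FPKM in both groups. The adaptor Gulp1 had 2.97 and 2.39 FPKM, and neither it nor Megf9 was called.

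The calcitonin receptor keeps satellite cells at rest and is lost soon after activation. Calcr, on chromosome 6 between 3635677 and 3714713 (mm9, minus strand), was at 0.011 FPKM in Tet2 KO against 0.016 in WT. It did not reach a mean of 1 FPKM, so no difference between groups is read from it. Genes of collagen V, a ligand of this receptor, were expressed: Col5a2 had 160 FPKM in Tet2 KO against 154 in WT, and Col5a1 had 11.2 and 11.8 FPKM. The related receptor gene Calcrl had 5.32 and 5.95 FPKM. Its accessory proteins differed in direction, with Ramp2 at 3.81 FPKM in Tet2 KO against 1.81 in WT and Ramp1 at 1.24 and 2.32 FPKM. Ramp3 was on the lower side with Ramp1, at 3.32 and 4.32 FPKM. Ramp2 was the 1 of 8 kept genes called, at 0.77; 33.4% of its exon bases are shared with Vps25. Ramp1, at -0.56, was just within 1.5-fold.

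**Figure D3:**
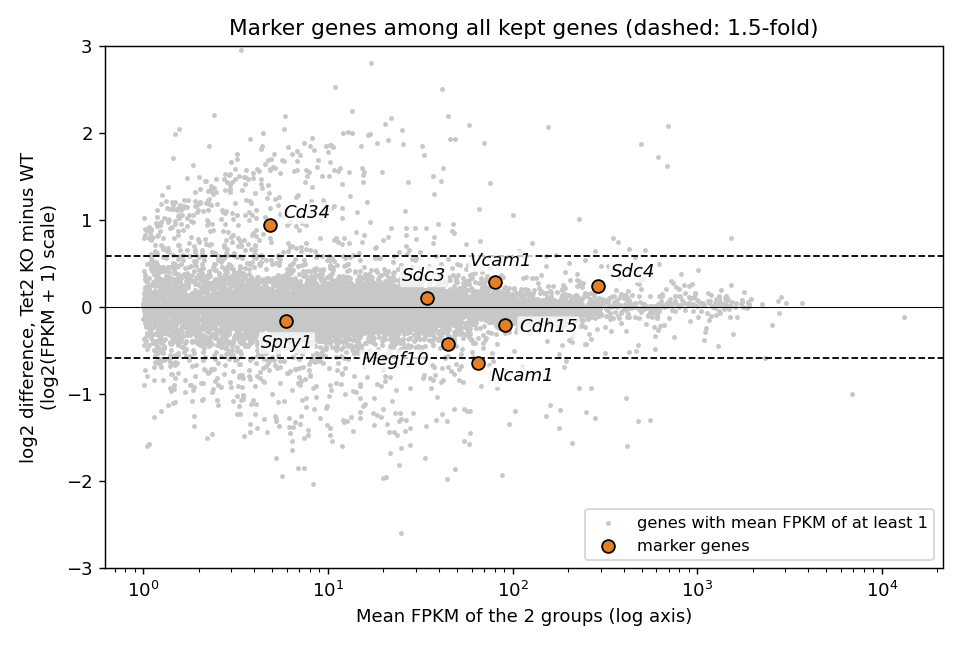
Difference between Tet2 KO and WT on the log2(FPKM + 1) scale against mean FPKM on a log axis for the 11692 kept genes (grey; 11 lie outside the plotted range), with the 8 kept markers in orange and dashed lines at 1.5-fold. Cd34 at 0.94 and Ncam1 at -0.65 lie past the lines.

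The remaining marker genes of satellite cells, taken as further lists, were then compared. Of 12 other surface proteins, among them Itga7, Cxcr4, Met and Cd82, all 12 were kept and none was called, with differences from -0.39 (Dag1) to 0.42 (Egfr) and a median of -0.01. Cxcr4, the receptor of the chemokine CXCL12, had 55.2 FPKM in Tet2 KO against 44.0 in WT. Cd82, a tetraspanin, had 110 and 135 FPKM. Of 16 genes associated with rest, 13 were kept and none was called, with a median of -0.07. Pax7, the transcription factor that defines satellite cells, had 11.0 FPKM in Tet2 KO against 11.1 in WT. The Notch target Hes1 had 25.6 and 24.6 FPKM, and Hey1, a second target, had 1.66 and 2.48 FPKM at a difference of -0.39. The most abundant gene of this list was Peg3, with 185 FPKM in Tet2 KO against 164 in WT. Over these lists and those of the families above, 81 genes were examined and 70 kept, of which 6 were called higher (Alcam, Cdh11, Fgf2, Icam1, Itgb7 and Ramp2) and 0 lower, beside the 3.72% and 2.89% of all kept genes.

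Genes of commitment and differentiation were compared in the same table. Of 8 such genes, 6 were called lower, beside 2.89% of all kept genes, and the median of the list was -0.99. The study examined several of the 8 genes in these samples, so the list is not independent of its direction. The largest differences were those of Acta1 and Myh3, a muscle actin and the embryonic myosin heavy chain, with 207 and 105 FPKM in Tet2 KO and 629 and 313 FPKM in WT. For Tmem8c, the gene of the fusion factor myomaker, the values were 29.1 and 66.8 FPKM. Myog, the transcription factor of terminal differentiation, had 268 FPKM in Tet2 KO against 554 in WT, while Myod1 had 313 and 336 FPKM and was within 1.5-fold. The difference of Ncam1, -0.65, lay between those of Myod1 (-0.10) and Ckm (-0.93), the smallest of the 6 called.

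**Figure D4:**
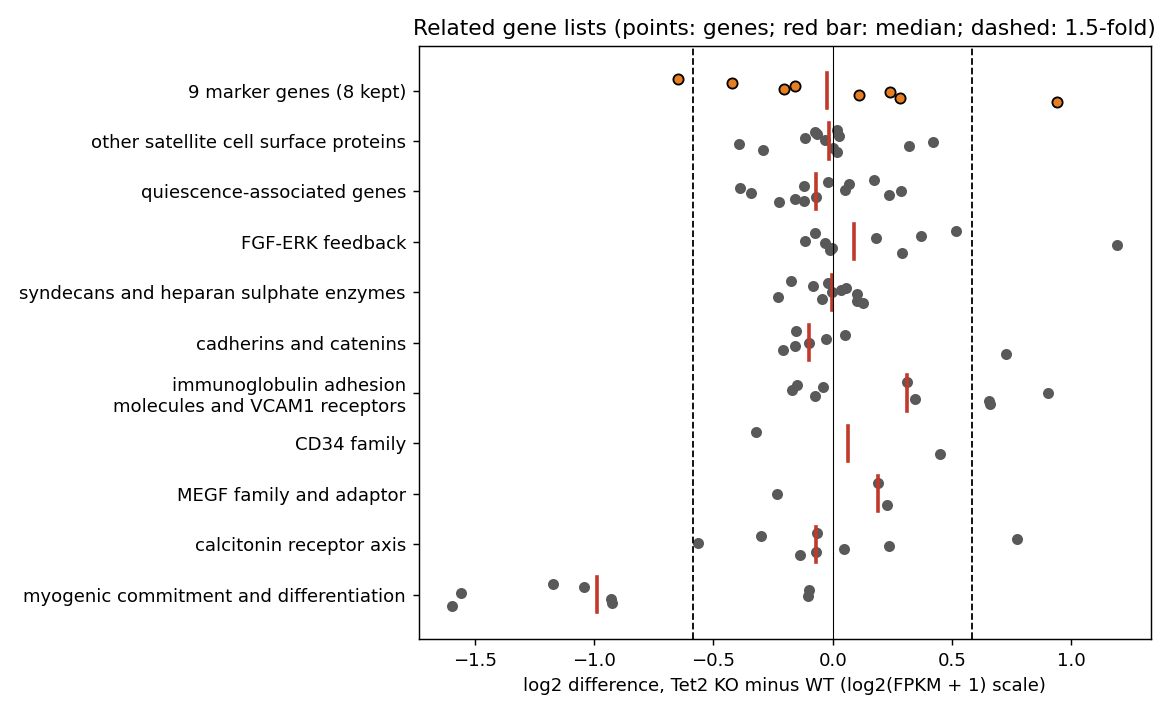
Differences between Tet2 KO and WT on the log2(FPKM + 1) scale for the kept genes of each list, with a point per gene, a red bar at the median and dashed lines at 1.5-fold. The 8 kept markers spread from -0.65 to 0.94 around a median of -0.02, and the differentiation list centres on -0.99.

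The cells were checked against markers of the types that the sort could hold. Of 9 markers of satellite cells and myoblasts, which include Cdh15 and Vcam1, 8 were kept and none was called. Of those kept, 7 were on the lower side and 1, Vcam1, on the higher, with a median of -0.10. Des had 372 FPKM in Tet2 KO against 449 in WT, and Msc had 0.071 and 0.10 FPKM. All 10 leukocyte markers were called higher, beside 3.72% of all kept genes. This list, as the others, was chosen with earlier results of these data known. The median difference of the 10 markers was 1.72. Their summed level was 468 FPKM in Tet2 KO against 119 FPKM in WT. The largest differences were those of Lyz2 (253 and 59.5 FPKM), Ctss (73.2 and 18.4 FPKM), Cd52 (29.6 and 7.28 FPKM) and Tyrobp (51.1 and 13.4 FPKM), genes of macrophages and other myeloid or lymphoid cells. Ptprc, which encodes the sorting marker CD45, had 5.67 and 1.36 FPKM, and Itgam, which encodes CD11b, had 10.1 and 2.09 FPKM. No leukocyte marker was at 0 in either group. These markers moved with Icam1 and Itgb7 as with Cd34, and their part in those values was not tested. Fibroblast markers were all on the higher side (6 of 6 kept), with a median of 0.25. Of these, 1 was called, Dcn, with 7.04 FPKM in Tet2 KO against 3.15 in WT. The 9 fibroblast markers listed summed to 474 FPKM in Tet2 KO against 439 in WT. The fibroblast-like progenitor marker Pdgfra had 1.91 and 1.06 FPKM, and Pi16 and Dpt were below 1 FPKM in both groups. Their part in the values of Cd34 and Cdh11 was not tested either. Ly6a, which encodes the negative sorting marker Sca1, had 288 FPKM in Tet2 KO against 278 in WT. Endothelial markers were low, with a summed level of 10.3 FPKM in Tet2 KO against 11.8 in WT. Egfl7 was the most abundant, with 4.65 and 4.82 FPKM, and Pecam1, which encodes CD31, had 1.48 and 1.63 FPKM. Cdh5 and Tie1 were below 0.5 FPKM in both groups. None of the 3 kept was called, and all 3 were on the lower side.

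**Figure D5:**
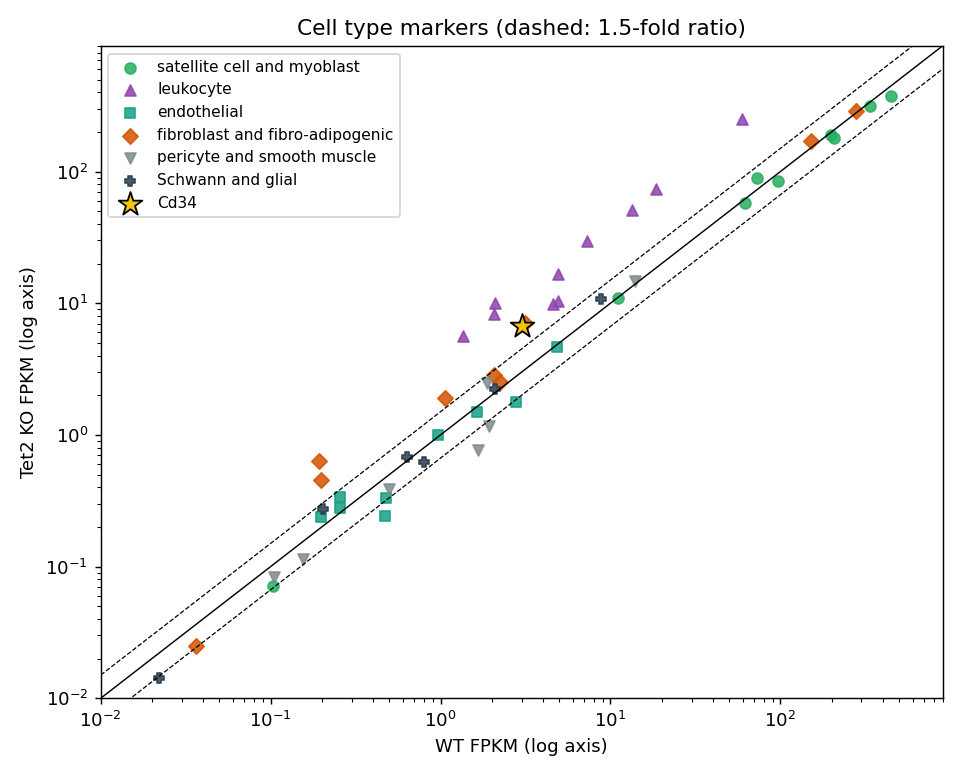
FPKM in Tet2 KO against WT, both on log axes, for markers of 6 cell types and for Cd34 (star), with the line of equal values and dashed lines at a 1.5-fold ratio of FPKM. The 10 leukocyte markers lie above the upper line, as Cd34 does at 3.03 in WT and 6.74 in Tet2 KO. The satellite cell and myoblast markers lie between the dashed lines, most of them below the line of equal values.

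Pericyte and Schwann cell markers were low as well. The 7 pericyte and smooth muscle markers summed to 19.7 FPKM in Tet2 KO against 20.2 in WT, most of it Notch3, which satellite cells also carry, and Abcc9 was the 1 called, lower, with 0.770 and 1.67 FPKM. The 6 Schwann and glial markers, of interest because glia also carry Ncam1, summed to 14.6 and 12.6 FPKM, with none called and Sox10 below 1 FPKM in both groups. Ngfr made up most of that sum, with 10.8 FPKM in Tet2 KO against 8.82 in WT.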

How the data were processed

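RNA of cultured primary myoblasts was examined, 2 libraries per group. Per the labels and the study's methods, the authors made unstranded TruSeq libraries, aligned trimmed read pairs to mm9 with TopHat2 2.0.13 and estimated expression as FPKM with Cuffdiff 2.2.1, which scales values between groups. The gene annotation is not given in the sources used here. The deposited FPKM table holds 1 value per gene and group, taken here as combining both libraries. Its columns of the authors' own comparison (fold change, test statistic, p-value, q-value and the test's status) were not used. FPKM values were not whole multiples of a step, so depth is unknown, and no error, interval or test could be given.

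Differences were log2((Tet2 KO FPKM + 1) / (WT FPKM + 1)). Over the whole table, genes whose 2 values averaged at least 1 FPKM were kept and called at 1.5-fold. The step was tested on simulated data, namely WT values with known changes well past 1.5-fold put in and no noise. Their recovery was fixed by arithmetic, so this checks the code and not the calls. Members and lists were chosen with earlier results of these data known. Named genes were all members, the called genes of each list (at most the 4 largest), its most abundant gene, and the sorting markers; further genes of the lists named for their role were chosen after their values were seen. Some genes of the lists are not reported here. Marker coordinates, exons and overlaps came from GENCODE vM1 (mm9), because some of the table's loci join overlapping genes. Megablast (BLAST+ 2.17.0) of each marker's longest coding transcript at 95% identity over at least 100 bases found a copy in another coding gene only for Ncam1 (3.92%, its overlap with Gm11149). Promoters came from a table of RefSeq promoters (GRCm38.p6), in which 6 of 9 markers were matched. Promoters of Vcam1, Megf10 and Ncam1 were not analysed here. Python 3.11.15, numpy 2.4.6, pandas 2.3.3 and matplotlib 3.10.9 were used.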

Additional observations from a re-analysis of the deposited data

How the results depend on the processing

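No paired analysis was possible because the table holds 1 value per group and none per library. Fits that omit a library were not run, since they need the same values. Under the 7 alternatives that were run, every kept marker held its direction. A change of pseudocount, filter or call limit cannot reverse a direction. Rescaling and centring could do so only for differences near 0, and the smallest was 0.11 (Sdc3). The kept directions are therefore no evidence of stability. The difference of Cd34 ran from 0.94 to 1.15 and that of Ncam1 from -0.66 to -0.64. At 2-fold, 0 markers were called higher and 0 lower, since both Cd34 (0.94) and Ncam1 (-0.65) lie below that limit, and over all genes 243 were called higher and 142 lower. With a mean FPKM of at least 5, Cd34 was left out, so that 0 markers were called higher. Over all genes, 182 were then called higher and 207 lower. The median difference of the 7 markers kept there was -0.16, against -0.02 for the 8 kept as reported. Rescaling to TPM or centring moved the median of all genes by less than 0.01. The related genes outside the differentiation list called higher numbered 6 as reported, 3 of 53 kept with a mean FPKM of at least 5 (Alcam, Cdh11 and Itgb7), 1 at 2-fold (Fgf2), 7 with a pseudocount of 0.1 and 8 without one (Spry4 and Podxl added). Without a pseudocount 577 of all genes were called higher and 469 lower. Ramp1 was called lower with a pseudocount of 0.1, without one and after rescaling to TPM. Depth is unknown, so the counting error of the low markers Cd34, Spry1 and Calcr cannot be given.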
